A study of Mus musculus with 31 samples.

Results

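Mammary glands of C57BL/6J dams on the breeder diet were compared on lactation day 10 between fluoxetine and saline treatment. The labels give 7 libraries for breeder diet + fluoxetine and 8 libraries for breeder diet + saline, so 15 of the 31 libraries of the series entered this comparison, 1 library per dam. The members were chosen by these labels alone. All 15 dams ate a breeder diet with 4 mg/kg folic acid (FA) from 2 weeks before mating, and differed by their labels in the daily injection from embryonic day 13 to lactation day 10. The injection was fluoxetine at 20 mg/kg/d or saline. Mating began at 6 weeks of age, and the age of each dam at collection was not given in the sources used here. The number of fluoxetine dams on this diet is 8 in the study's methods, and the labels were followed here.

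Fluoxetine is a selective serotonin reuptake inhibitor (SSRI). It blocks the serotonin transporter (SERT, encoded by *Slc6a4*), which clears serotonin (5HT) from outside the cell. The lactating mammary gland makes its own 5HT with tryptophan hydroxylase 1 (*Tph1*), and this local 5HT is known to act on milk secretion, on tight junctions and on calcium supply to milk through parathyroid hormone-related protein (*Pthlh*). The gland at this stage is mostly secretory epithelium, wrapped by contractile myoepithelial cells, and it makes milk fat and milk proteins in large amounts.

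The whole gland was sampled, so fewer cells of a type and less RNA per cell cannot be told apart. The 15 libraries held between 15412542 and 23875965 counts each (fluoxetine mean minus saline mean 545330 counts, exact permutation test, two-sided, p = 0.717). The 20 most abundant genes, led by the milk protein genes *Wap*, *Csn2*, *Csn1s1*, *Csn1s2a* and *Csn1s2b*, took 73.3% to 78.2% of the counts of saline dams and 61.2% to 79.1% of those of fluoxetine dams (fluoxetine mean minus saline mean -1.81 percentage points, 0.45 without dam 13, exact permutation test, two-sided, p = 0.627). All 8 luminal epithelial and all 10 myoepithelial marker genes passed the filter on low counts. Dam 13 of breeder diet + fluoxetine stood apart, with the 61.2% and a summed milk protein level of 326380 CPM (counts per 1000000 of the library, scaled by TMM), against 562440 to 813930 CPM in the other 14 dams. Dam 9 of breeder diet + fluoxetine had the fewest genes with counts (15654, against 16484 to 20160) and the highest share of counts on nuclear copies of mitochondrial genes (6.44%, against 1.46% to 3.68%). For some results the value without dam 13, or without dams 9 and 13, is therefore also given.

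No gene differed between fluoxetine and saline dams on the breeder diet at an FDR of 10% (0% of 13141 genes tested, quasi-likelihood test of edgeR, p adjusted by Benjamini-Hochberg, smallest adjusted p = 0.732). The likelihood ratio test called 1 gene, *Apod* (log2 fold change -1.67, adjusted p = 0.00765), and DESeq2 called 8 genes, 7 higher and 1 lower. With 0.05 as the limit of the unadjusted p there were 862 genes, 476 higher (3.62% of the genes tested) and 386 lower (2.94%). Those at 0.01 or below numbered 164, 88 higher (0.67%) and 76 lower (0.578%), of which 143 were protein-coding. Of the 164 genes, 158 kept their direction without each dam in turn, and 48 stayed at or below 0.01 in all 15 such fits. The 164 were picked by p in these same dams, so these counts are not independent evidence. A gene that missed the filter in a fit was counted as not keeping its direction. Of all genes tested, 50.3% were higher in fluoxetine dams. The median log2 fold change of all genes was 0.0013, and the median size of a change without its sign was 0.16.

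**Figure D1:**
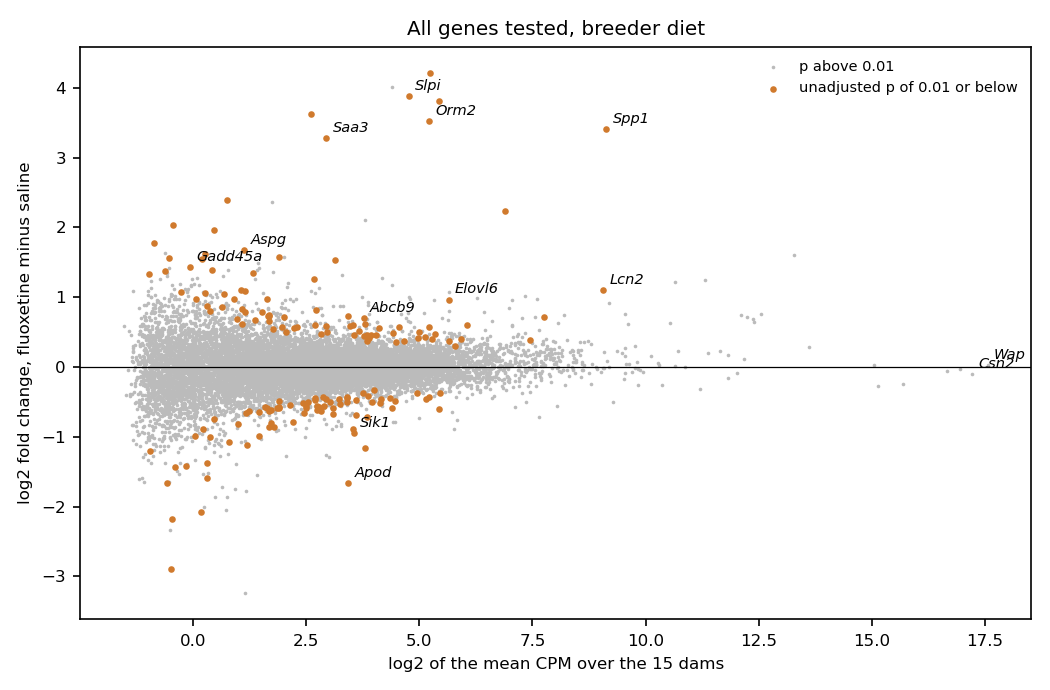
Log2 fold change (fluoxetine minus saline, 7 against 8 dams on the breeder diet) of each of the 13141 genes tested, against the log2 of its mean CPM over the 15 dams. Orange points mark the 164 genes at an unadjusted p of 0.01 or below; none passed the FDR of 10%, and the abundant milk genes *Wap* and *Csn2* at the right lie near 0.

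*Elovl6* (ENSMUSG00000041220, chromosome 3 from 129326004 to 129432144 of GRCm39) encodes an enzyme that lengthens palmitate, the product of fatty acid synthase. It was counted at 26.1 to 44.3 CPM in saline dams (median 33.4) and at 36.1 to 134 CPM in fluoxetine dams (median 57.9). All 7 fluoxetine dams were above the saline mean and 5 of them above the highest saline dam. With means of 34.6 ± 6.67 (SD, n = 8) and 67.7 ± 33.7 CPM (SD, n = 7), the log2 fold change was 0.97 with a standard error (SE) of 0.230 (adjusted p = 0.732). The highest dam was dam 9, and without dams 9 and 13 the log2 fold change was 0.71.

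The other leading genes with higher levels in fluoxetine dams were *Aspg*, *Abcb9* and *Gadd45a*. *Aspg* (ENSMUSG00000037686, chromosome 12 from 112073076 to 112094007), an asparaginase, had 0.450 to 1.86 CPM in saline dams (median 1.11) and 0.875 to 8.77 CPM in fluoxetine dams (median 3.33). Its log2 fold change was 1.68 with an SE of 0.390, and 6 of 7 fluoxetine dams lay above the highest saline dam. Dam 9 was the highest fluoxetine dam, and the next had 3.82 CPM. *Abcb9* (ENSMUSG00000029408, chromosome 5 from 124199593 to 124233903), a peptide transporter of the lysosome, had 7.47 to 17.7 CPM in saline dams (median 9.68) and 12.5 to 26.1 CPM in fluoxetine dams (median 16.2), a log2 fold change of 0.70 with an SE of 0.180. Only 2 fluoxetine dams lay above the highest saline dam, dam 2, which stood far from the other 7. *Gadd45a* (ENSMUSG00000036390, chromosome 6 from 67012070 to 67014441), a stress gene linked to growth arrest and DNA repair, was rare, with 0.351 to 0.844 CPM in saline dams (median 0.518) and 0.535 to 2.96 CPM in fluoxetine dams (median 1.35). Its log2 fold change of 1.43 (SE 0.368) rests on 315 counts over the 15 dams, and *E230016M11Rik* overlaps it on the opposite strand with 81 counts. *Aspg*, *Abcb9* and *Gadd45a* each had an adjusted p of 0.732.

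Among the genes with lower levels in fluoxetine dams, *Apod* had the smallest p. *Apod* (ENSMUSG00000022548, chromosome 16 from 31115010 to 31135355) encodes apolipoprotein D, a secreted lipid carrier. It ranged from 5.19 to 35.96 CPM in saline dams (median 13.9) and only from 2.70 to 5.80 CPM in fluoxetine dams (median 5.49). The fluoxetine dams were tightly grouped, and the spread lay in the saline dams, where dam 12 was as low as the fluoxetine dams and dam 2 the highest. The log2 fold change was -1.67 with an SE of 0.334 (adjusted p = 0.732). It was -1.38 without saline dam 2 and -1.80 without saline dam 12, and of all fits without 1 dam only the latter called it (adjusted p = 0.0640).

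*Sik1* (ENSMUSG00000024042, chromosome 17 from 32058850 to 32074818), a kinase induced by cyclic AMP, had 7.67 to 21.6 CPM in saline dams (median 15.6) and 3.80 to 12.1 CPM in fluoxetine dams (median 7.63). All 7 fluoxetine dams were below the saline mean, with a log2 fold change of -0.94 (SE 0.228). *Etfdh* (ENSMUSG00000027809, chromosome 3 from 79511086 to 79536807), which passes electrons from fatty acid oxidation to ubiquinone, had 6.15 to 17.5 CPM (median 10.2) against 5.66 to 8.05 CPM (median 6.30), a log2 fold change of -0.67 (SE 0.174). Saline dam 3 was far above the rest, and *Ppid* on the opposite strand overlaps the gene with more counts than *Etfdh* itself (3775 against 2732). The strand setting of the counting was not given in the sources used here, so reads of overlapping genes may not be told apart. *Rcbtb1* (ENSMUSG00000035469, chromosome 14 from 59432107 to 59486036) had 6.30 to 9.57 CPM (median 8.19) against 3.73 to 7.09 CPM (median 5.73), and *Ccdc186* (ENSMUSG00000035173, chromosome 19 from 56775913 to 56810652), known for its part in dense-core vesicle formation, had 9.18 to 12.1 CPM (median 10.9) against 5.96 to 9.33 CPM (median 8.17). In both, 6 of 7 fluoxetine dams lay below the lowest saline dam, with log2 fold changes of -0.57 (SE 0.149) and -0.46 (SE 0.124). The adjusted p of these 4 genes was 0.732.

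**Figure D2:**
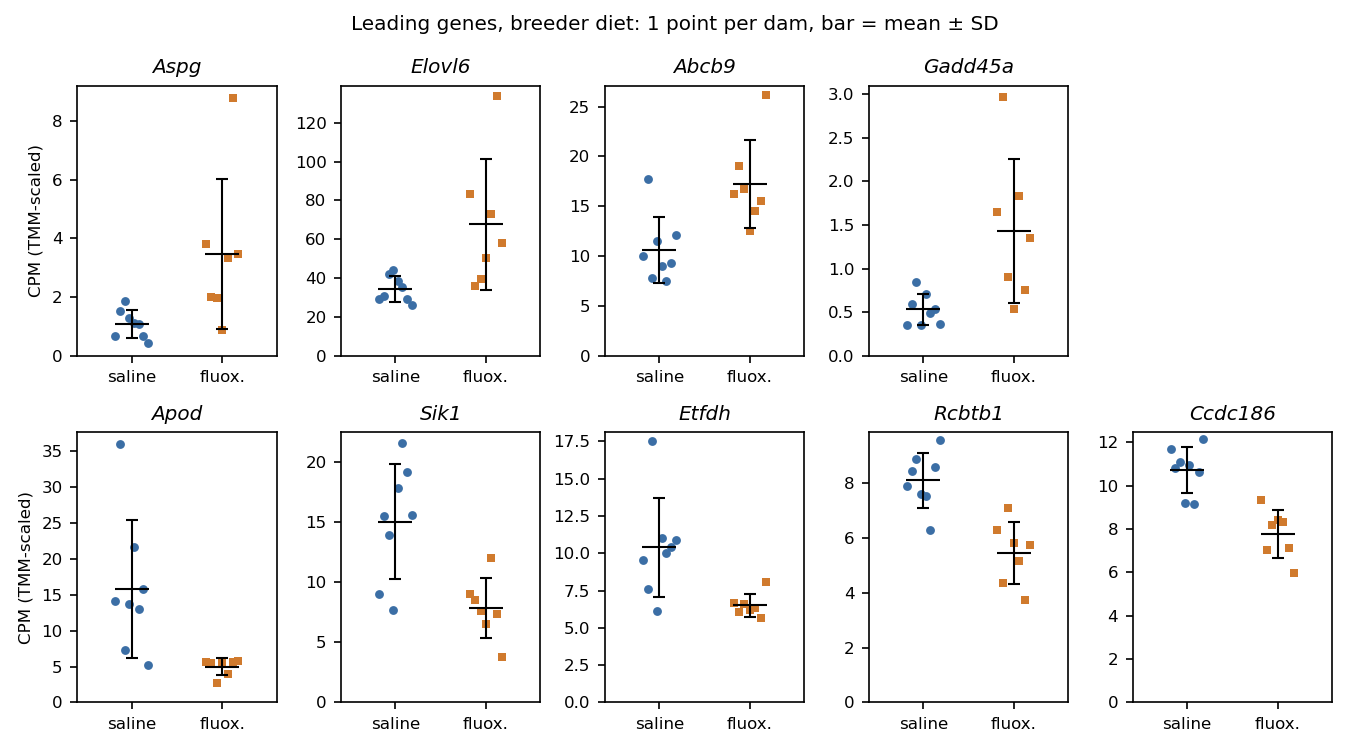
CPM (normalized by TMM) of the 4 higher and 5 lower leading genes named in the text, 1 point per dam, saline (blue circles, n = 8) and fluoxetine (orange squares, n = 7) on the breeder diet, with mean ± SD; each axis starts at 0. The saline dams of *Apod* spread from 5.19 to 35.96 CPM, and its fluoxetine dams from 2.70 to 5.80 CPM.

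The next 10 genes by p, 5 in each direction, had an adjusted p of 0.732 as well. Higher in fluoxetine dams were the chemokine *Cxcl17* (log2 fold change 1.57, 0.93 without dam 13), the ubiquitin ligase gene *Mid1* (0.59), the MHC class I gene *H2-Q4* (0.47), *Apol7a* (0.61) and the p38 kinase *Mapk11* (1.04). Lower were the cell cycle kinase *Cdk6* (-0.63), *Zfp36l2*, which binds and destabilizes messenger RNA (-0.89), *Zfp9* (-0.86), *Mllt6* (-0.50) and *1600012H06Rik* (-0.44). *H2-Q4* has near-identical relatives among the MHC class I genes, so its counts may be shared with them.

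Fluoxetine acts on monoamine handling. Of this machinery, transcripts of *Slc6a4*, *Tph1*, *Ddc*, *Th* and most receptors were sparse in the gland, whereas those of *Aldh2* were not. Of 22 genes of 5HT and dopamine synthesis, transport and breakdown, 14 passed the filter, 7 with higher and 7 with lower levels, with a median log2 fold change of -0.047. *Tph1*, the entry enzyme of 5HT synthesis outside the brain, was counted at 0.245 to 1.67 CPM in saline dams (median 0.649) and 0.298 to 1.48 CPM in fluoxetine dams (median 0.580). The groups of *Tph1* overlapped fully, and its log2 fold change of -0.19 (SE 0.427, adjusted p = 0.949) turned to 0.057 without saline dam 2. *Aldh2*, an aldehyde dehydrogenase and the most abundant member, averaged 76.9 ± 11.003 CPM in saline dams and 64.2 ± 15.4 CPM in fluoxetine dams. The target of the drug, *Slc6a4*, had 6 counts in all over the 15 dams, *Ddc* (dopa decarboxylase) had 7 and *Th* (tyrosine hydroxylase) had 1, so a difference in these genes was not detectable at this depth. Of 19 genes of 5HT and dopamine receptors, only *Htr1d* and *Drd4* passed the filter. *Drd4* had 19.3 to 39.5 CPM in saline dams (median 27.5) and 13.5 to 84.4 CPM in fluoxetine dams (median 27.3), with dam 13 the highest, and *Htr1d* 0.204 to 1.35 CPM (median 0.802) against 0.160 to 1.56 CPM (median 1.06). Log2 fold changes of 0.23 (SE 0.341) for *Drd4* and 0.32 (SE 0.478) for *Htr1d* did not exceed their errors.

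Lipid genes were measured in several lists, since milk fat is made in the gland. In triglyceride assembly, 9 of 14 genes were higher and 5 lower. The median log2 fold change was 0.17, and 0.069 without fluoxetine dams 9 and 13. At an unadjusted p of 0.05 or below were 3 higher and 0 lower genes (3.62% and 2.94% of all genes). *Dgat1* and *Dgat2* encode the acyltransferases of the last step. *Dgat1* (chromosome 15 from 76385083 to 76396476) had 36.4 to 57.5 CPM in saline dams (median 41.6) and 45.0 to 70.4 CPM in fluoxetine dams (median 57.3), a log2 fold change of 0.37 (SE 0.122, adjusted p = 0.732). *Dgat2* (chromosome 7 from 98802491 to 98831991) had 5.10 to 16.2 CPM (median 7.05) and 4.76 to 37.0 CPM (median 20.6), a log2 fold change of 0.999 (SE 0.443, adjusted p = 0.735). Fluoxetine dams of *Dgat1* were all above the saline median. Those of *Dgat2* were split, with 4 above all saline dams and 2 below all of them. *Hsf1* overlaps *Dgat1* on the opposite strand with 3858 counts against 16001. *Agpat2*, an acyltransferase of an earlier step, had means of 13.1 ± 5.07 and 19.3 ± 5.72 CPM (log2 fold change 0.55, SE 0.218).

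The other genes of fatty acid metabolism were split in direction. In the list of elongases and desaturases 9 of 17 genes were higher and 8 lower, with a median of 0.0031. *Scd1*, the most abundant member and the main desaturase of saturated fatty acids, differed by 0.0031 with an SE of 0.221. *Fads6* was the other member at an unadjusted p of 0.05 or below, with a log2 fold change of -0.76 (SE 0.286). In de novo synthesis, 13 of 21 genes were higher, with a median of 0.065, and *Mlxipl*, which encodes the carbohydrate-responsive factor ChREBP, was the 1 member at 0.05 or below. *Mlxipl* had 3.27 to 9.12 CPM in saline dams (median 4.35) and 4.27 to 16.1 CPM in fluoxetine dams (median 9.02), a log2 fold change of 0.82 (SE 0.254). *Fasn* (fatty acid synthase) was among the 20 most abundant genes and was not at 0.05 or below. Cholesterol synthesis showed higher levels in 12 of 22 genes, with a median of 0.068. Its 2 members at 0.05 or below were *Hsd17b7* at -0.44 and *Ebp* at 0.23. For each of these lists, the shares over all genes at this limit were 3.62% higher and 2.94% lower.

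Milk protein genes were the bulk of the RNA and showed little difference. Of 11 genes, 4 were higher and 7 lower, with none at an unadjusted p of 0.05 or below and a median log2 fold change of -0.038. *Wap* (whey acidic protein) ran from 146940 to 244440 CPM in saline dams and from 93938 to 278580 CPM in fluoxetine dams, a log2 fold change of 0.032 (SE 0.183). *Csn2* (beta-casein) differed by -0.11 (SE 0.182) and *Csn1s1* (alpha-casein) by -0.025 (SE 0.169). The lowest fluoxetine dam of each was dam 13. The prolactin and STAT5 list, the hormone pathway that drives these genes, showed higher levels in 5 of 12 genes, with a median of -0.040. In it, *Gata3*, a factor of luminal cell identity, stood at 0.43 (SE 0.166) and *Socs2*, a STAT5 target that damps the pathway, at -0.41 (SE 0.179).

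Acute-phase genes had the highest list median. Acute-phase proteins are secreted in inflammation, by the liver and also by the mammary epithelium, where they mark the early stage of involution. Of 22 listed genes, 14 passed the filter, 12 with higher and 2 with lower levels in fluoxetine dams, and 9 were higher and 0 lower at an unadjusted p of 0.05 or below (3.62% higher and 2.94% lower over all genes). The median log2 fold change was 1.603, against 0.0013 over all genes tested, and none passed the FDR. Dam 13 carried much of this, and without it the median was 0.94, with 12 of 14 genes still higher.

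*Orm2* (orosomucoid, a plasma lipocalin) was counted at 2.81 to 10.5 CPM in saline dams (median 5.92) and at 5.18 to 381 CPM in fluoxetine dams (median 29.7). *Lcn2* (lipocalin 2, which starves bacteria of iron) had 254 to 633 CPM (median 316) against 328 to 1812 CPM (median 693). In each of these genes 4 of 7 fluoxetine dams, dams 2, 5, 8 and 13, lay above all saline dams. *Orm2* had a log2 fold change of 3.52 (SE 0.901, 1.76 without dam 13), and *Lcn2* one of 1.11 (SE 0.331, 0.72 without dam 13). *Saa3* (serum amyloid A3) had 0.0563 to 2.75 CPM in saline dams (median 1.74) and 0.898 to 51.5 CPM in fluoxetine dams (median 3.55), a log2 fold change of 3.28 (SE 0.908, 2.497 without dam 13). *Slpi*, an inhibitor of neutrophil proteases, reached 328 CPM in dam 13, and the other 6 fluoxetine dams had 3.08 to 24.2 CPM, against 1.95 to 8.39 CPM in saline dams. Its log2 fold change went from 3.88 (SE 1.11) to 1.16 without dam 13.

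*Saa2* (serum amyloid A2, chromosome 7 from 46401214 to 46403737) was uneven within both groups. Its median was 0.743 CPM in saline dams and 0.962 CPM in fluoxetine dams, while 3 fluoxetine dams had 196 CPM (dam 13), 48.4 CPM (dam 2) and 47.2 CPM (dam 5). The highest saline dam, dam 6, had 14.0 CPM. So the log2 fold change of 4.01 (SE 1.47, adjusted p = 0.732) came from 3 dams, and it was 2.66 without dam 13 and 5.49 without saline dam 6. *Saa1* and *Saa2* are near-identical copies whose reads the counting may not have separated.

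**Figure D3:**
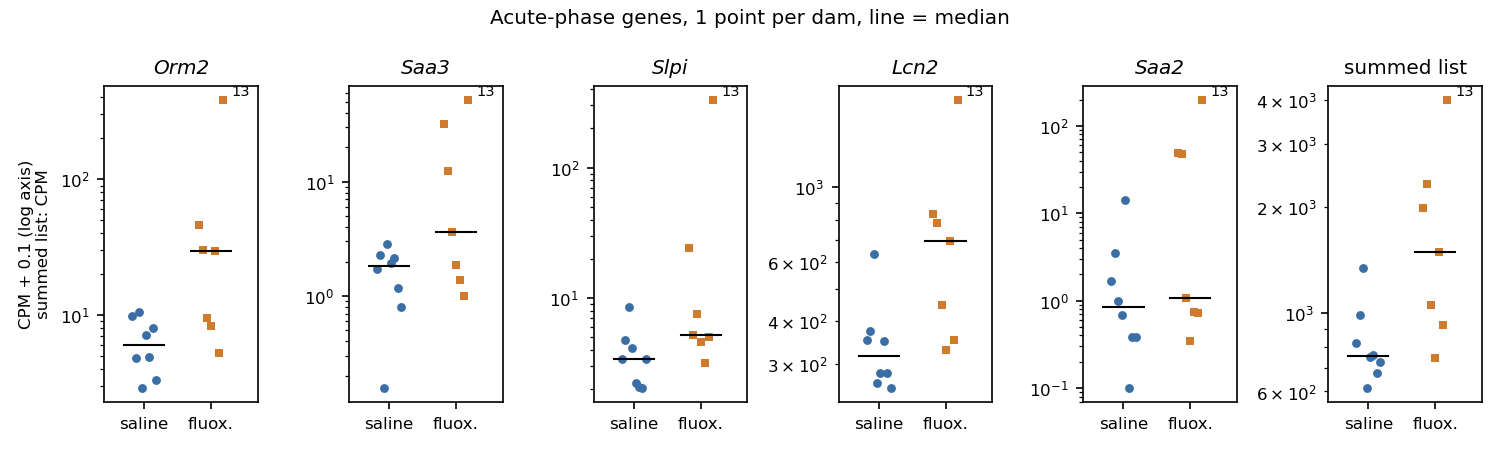
Levels of 5 acute-phase genes (CPM + 0.1, log axis) and of the summed list (CPM, log axis) in saline (blue circles, n = 8) and fluoxetine (orange squares, n = 7) dams on the breeder diet, with the group median as a line and dam 13 of breeder diet + fluoxetine marked. Dam 13 is the highest dam in each panel, with 3991 CPM in the sum against 613.5 to 1337 CPM in saline dams and 746 to 2314 CPM in the other fluoxetine dams.

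Markers of leukocytes were compared beside these genes. The list of macrophages and MHC class II had 12 of 12 genes higher, but with a median log2 fold change of only 0.099 and 1 gene, *Lyz2* (lysozyme, 0.49, SE 0.217), at an unadjusted p of 0.05 or below. Its summed level ran from 228 to 326 CPM in saline dams and from 214 to 349 CPM in fluoxetine dams. The medians of *Lyz2* were 13.3 CPM in saline and 13.0 CPM in fluoxetine dams, and its highest dams were fluoxetine dams 13 (29.7 CPM) and 5 (24.3 CPM). At an unadjusted p of 0.05 or below 3.62% of all genes were higher. Of 12 neutrophil markers 1 passed the filter, and the sum of all 12 lay between 0.614 and 2.76 CPM in saline dams and between 0.601 and 6.65 CPM in fluoxetine dams. None of 10 markers of T and NK cells passed the filter, with sums of 0.937 to 4.44 CPM and 1.51 to 3.12 CPM. The part of these cells in the acute-phase levels was not tested. The list of STAT3 and early involution showed higher levels in 11 of 20 genes, with a median of 0.032 and none at 0.05 or below, and complement had 10 of 15 higher with a median of 0.14.

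Immediate early genes, which answer cell stimulation within minutes, had the lowest list median. Of 19 genes 3 were higher and 16 lower in fluoxetine dams, with 0 higher and 4 lower at an unadjusted p of 0.05 or below, and a median log2 fold change of -0.28. *Fos* had 7.78 to 40.3 CPM in saline dams (median 10.6) and 6.13 to 11.4 CPM in fluoxetine dams (median 7.55), a log2 fold change of -1.16 (SE 0.393). Saline dams 12, 4 and 3 had 40.3, 35.6 and 26.9 CPM, and the other 5 saline dams were at 7.78 to 11.8 CPM, within or near the range of the fluoxetine dams. *Fosb* stood at -2.05 (SE 0.776), *Egr1* at -0.89 (SE 0.389) and *Zfp36* at -0.41 (SE 0.170), each with dam 4 the highest or level with the highest of the saline dams. Without saline dam 4, *Egr1* was at -0.52 and *Fosb* at -1.51. On the summed level, which *Jund* leads, the groups overlapped widely (200.3 to 411 CPM in saline and 237 to 421 CPM in fluoxetine dams).

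Myoepithelial markers were lower in all 10 genes, with a median of -0.19, while 50.3% of all genes were higher. At an unadjusted p of 0.05 or below were 2 of them, *Acta2* (smooth muscle actin) and *Mylk* (myosin light chain kinase). Over all genes 2.94% were lower at this limit. *Acta2* had 135 to 204 CPM in saline dams (median 179) and 96.7 to 193 CPM in fluoxetine dams (median 119), a log2 fold change of -0.37 (SE 0.143). *Mylk* had 36.8 to 50.5 CPM (median 43.3) against 26.0 to 49.7 CPM (median 29.6), a log2 fold change of -0.35 (SE 0.136). For *Acta2* 4 and for *Mylk* 5 of 7 fluoxetine dams lay below all saline dams, and dam 7 was high in both. The list median was -0.29 without dam 7 and -0.16 without dam 13. Luminal markers had 6 of 8 genes higher, with a median of 0.062, so that the epithelial marker lists did not share a direction.

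Erythroid markers were higher in 5 of 5 genes, with a median of 0.98. At an unadjusted p of 0.05 or below were 4 of them, against 3.62% of all genes higher at this limit. *Hba-a1* (alpha-globin) had 12.7 to 29.3 CPM in saline dams (median 17.5) and 10.5 to 90.6 CPM in fluoxetine dams (median 38.1). Fluoxetine dams 2, 5, 7 and 8 lay above all saline dams, and dam 6 below them. *Alas2*, the first enzyme of heme synthesis in red cells, stood at 0.89 (SE 0.327), and without dam 2 the list median was 0.62. The paired globin genes are near-identical, and their counts may be shared.

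Skeletal muscle genes depended on 1 dam. In 12 of 13 genes the level was higher in fluoxetine dams, with a median of 0.81, but dam 5 held 8431.5 CPM of the summed list against 2.103 to 781 CPM in the other fluoxetine dams and 70.8 to 2609 CPM in saline dams. Without dam 5 all 13 genes were lower, with a median of -1.47. No member was at an unadjusted p of 0.05 or below. Fibroblast and matrix genes had 9 of 12 lower (median -0.16), adipocyte genes 7 of 11 lower (-0.049), and endothelial genes 7 of 9 higher (0.15), with *Tek* at 0.60 (SE 0.251) and *Emcn* at 0.56 (SE 0.235).

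**Figure D4:**
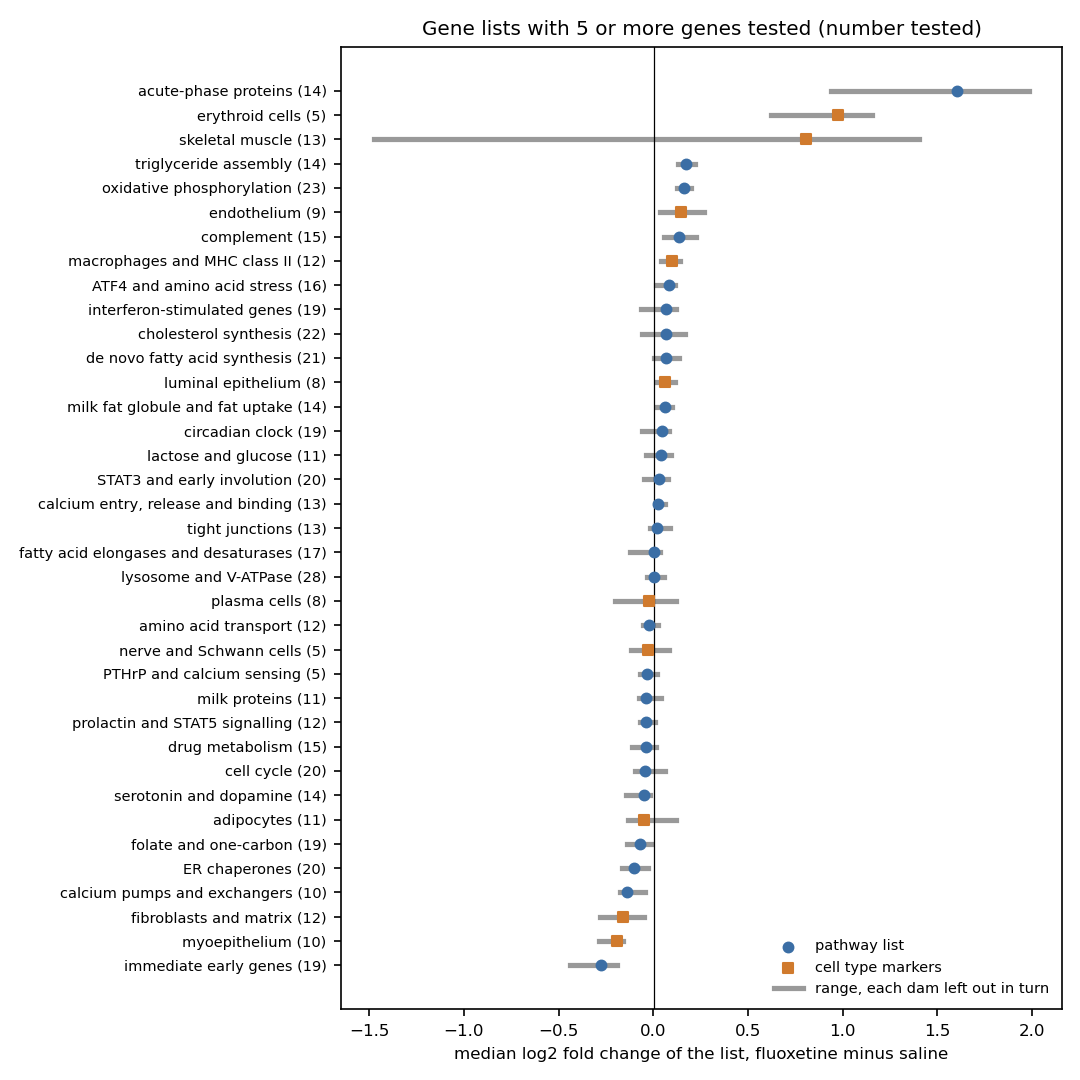
Median log2 fold change (fluoxetine minus saline) of each gene list with 5 or more genes tested, pathway lists as blue circles and cell type markers as orange squares, with grey bars for the range when each of the 15 dams is left out in turn; the vertical line is the median of all genes. Acute-phase proteins (1.603) are at the top and immediate early genes (-0.28) at the bottom, and the bar of skeletal muscle spans from -1.47 to 1.40.

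The lactating gland moves calcium from blood to milk. Of 10 calcium pumps and exchangers 4 were higher and 6 lower, with a median of -0.14. At an unadjusted p of 0.05 or below were 2 lower genes, against 2.94% of all genes lower at this limit. *Atp2a2*, the pump of the endoplasmic reticulum, had 32.1 to 52.9 CPM in saline dams (median 41.7) and 24.0 to 35.5 CPM in fluoxetine dams (median 32.3), a log2 fold change of -0.43 (SE 0.135). *Atp2b1* of the plasma membrane stood at -0.31 (SE 0.133). *Atp2b2*, the main pump into milk, was the most abundant at 322 ± 91.3 CPM in saline and 270 ± 59.9 CPM in fluoxetine dams (-0.25, SE 0.191). Among genes of calcium entry, release and binding 8 of 13 were higher, and *Itpr2*, a release channel, was at 0.51 (SE 0.164). *Pthlh* had 7.09 to 30.5 CPM in saline dams (median 24.2) and 14.3 to 44.4 CPM in fluoxetine dams (median 27.1), a log2 fold change of 0.28 (SE 0.293, adjusted p = 0.865). Its receptor gene *Pth1r* had 0.0667 to 1.58 CPM (median 1.08) and 0.300 to 3.80 CPM (median 1.80), a log2 fold change of 0.92 (SE 0.503, adjusted p = 0.766), and 0.35 without dams 9 and 13. *Myl3*, a muscle gene on the opposite strand, overlaps *Pth1r* with 269 counts against 403.

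Oxidative phosphorylation genes encoded in the nucleus were higher in 20 of 23 (50.3% over all genes), by a median of 0.16. *Ndufb9* (0.29, SE 0.127), *Cox5b* (0.33, SE 0.149) and *Cox7a2* (0.33, SE 0.149), subunits of the respiratory chain, were at an unadjusted p of 0.05 or below. Over all genes 3.62% were higher at this limit. *Cox4i1*, the most abundant, had 160 to 280 CPM in saline and 223 to 319 CPM in fluoxetine dams. Chaperones of the endoplasmic reticulum were lower in 16 of 20, with a median of -0.10 and none at 0.05 or below. In the circadian clock list 10 of 19 were higher, with *Ciart*, a repressor of the clock, at 0.98 (SE 0.318) and *Npas2*, an activator, at -1.07 (SE 0.407).

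The remaining lists had medians between -0.069 and 0.082 where 5 or more genes were tested. Genes of folate and one-carbon metabolism, the route that FA feeds, were higher in 7 and lower in 12 of 19 (median -0.069). Among them *Cbs* (cystathionine beta-synthase, which draws homocysteine into cysteine synthesis) averaged 13.8 CPM in saline and 10.02 CPM in fluoxetine dams (log2 fold change -0.47, SE 0.154), and *Mthfd2*, a mitochondrial folate enzyme that is also an ATF4 target, averaged 1.85 and 3.51 CPM (0.92, SE 0.327). The list of ATF4 and amino acid stress had 12 of 16 higher (median 0.082). Amino acid transporters were split 6 to 6, with *Slc38a10* at -0.41 (SE 0.169), and lysosomal genes 14 to 14, with the proteases *Ctsa* at 0.28 (SE 0.111) and *Ctsh* at -0.24 (SE 0.113). The drug metabolism list had 7 of 15 higher, with *Cyp2d22* at 0.65 (SE 0.237), and the cell cycle list 9 of 20, with the mitotic kinase *Plk1* at 1.12 (SE 0.475). Tight junction genes, a known target of mammary 5HT, were higher in 7 and lower in 6 of 13, with a median of 0.020 and none at an unadjusted p of 0.05 or below. Lactose synthesis and glucose uptake (7 of 11 higher, median 0.041), the milk fat globule and fat uptake (9 of 14, 0.062) and interferon-stimulated genes (11 of 19, 0.070) also had none. Transglutaminases can attach 5HT to proteins, and 3 of 8 passed the filter, *Tgm1* at 0.28 (SE 0.177), *Tgm2* at -0.029 (SE 0.214) and *F13a1* at 0.021 (SE 0.270).

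*Serhl* and *Pgm5* were lower in fluoxetine dams. *Serhl* (serine hydrolase-like, chromosome 15 from 82973707 to 83000875) had 10.4 to 14.4 CPM in saline dams (median 12.4) and 5.73 to 12.5 CPM in fluoxetine dams (median 9.45), a log2 fold change of -0.36 (SE 0.142, adjusted p = 0.732). *Pgm5*, a phosphoglucomutase relative found at cell adhesions (chromosome 19 from 24660380 to 24839229), had 3.68 to 5.29 CPM (median 4.28) and 2.003 to 3.84 CPM (median 2.84), a log2 fold change of -0.58 (SE 0.169, adjusted p = 0.732). In *Pgm5* 6 of 7 and in *Serhl* 5 of 7 fluoxetine dams lay below all saline dams. *Rrp7a* on the opposite strand overlaps *Serhl* with more counts than *Serhl* itself (7080 against 3554), so their reads may not be told apart. *Pold1*, a DNA polymerase subunit, was at 0.39 (SE 0.237). *Jazf1*, a nuclear cofactor, was rare at 0.255 to 1.64 CPM in saline dams (median 0.718) and 0 to 0.541 CPM in fluoxetine dams (median 0.447), with a log2 fold change of -1.03 (SE 0.478, adjusted p = 0.741). Its 188 counts over the 15 dams stand beside 46231 counts of *Tax1bp1*, which overlaps it on the opposite strand.

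The 16 dams of the FA diet, with 24 mg/kg FA and no dam in common with the breeder diet, gave a second set of values for the same treatment. In these 8 fluoxetine and 8 saline dams, analysed alone, edgeR's quasi-likelihood test called 0 of 12833 genes. Of the 86 genes higher on the breeder diet at an unadjusted p of 0.01 or below and tested on both diets, 68 (79.1%) were higher on the FA diet, against 55.3% of all 12673 genes tested on both. At an unadjusted p of 0.05 or below and in the same direction were 20 of the 86 (23.3%, against 5.44% of all genes). Of the 74 genes lower on the breeder diet, 37 were lower and 37 higher on the FA diet. At 0.05 or below, 3 of them were lower (4.05%, against 1.67%). As many, 3, were higher at this limit (4.05%, against 5.44%). When each of the 16 dams of the FA diet was left out in turn, 64 to 71 of the genes higher on the breeder diet were higher on the FA diet, and 34 to 45 of the lower ones were lower.

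Values of single genes on the FA diet stand beside those of the breeder diet. *Elovl6* went from 36.4 ± 8.24 CPM in saline to 65.3 ± 27.9 CPM in fluoxetine dams on the FA diet, a log2 fold change of 0.85, which ran from 0.70 to 0.94 when each of the 16 dams was left out. *Dgat1* had one of 0.33 there, *Pgm5* stood at -0.64 and *Serhl* at -0.75. Other genes higher on the breeder diet were uneven. *Abcb9* was at 0.086 on the FA diet and *Cxcl17* at -0.65 (interaction 2.24, unadjusted p = 0.00266, adjusted p = 0.977, quasi-likelihood test of edgeR). *Aspg* was at 2.27 and *Gadd45a* at 1.11, but without dam 3 of FA diet + fluoxetine they were at 1.25 and 0.27. *Apod* had a log2 fold change of -0.22 on the FA diet, where dam 3 of FA diet + fluoxetine had 51.8 CPM and the other 7 fluoxetine dams 3.21 to 8.29 CPM, against a mean of 12.6 ± 13.3 CPM in saline dams. Without dam 3 it was -1.39, and without saline dam 11 (43.9 CPM) it was 0.40. *Sik1* (-0.02), *Etfdh* (-0.03), *Rcbtb1* (0.03) and *Ccdc186* (-0.07) lay near 0 there. Of the next lower genes by p, *Cdk6* was at -0.42, *1600012H06Rik* at -0.10, *Zfp36l2* at 0.12, *Zfp9* at 0.28 and *Mllt6* at 0.53. The interaction of *Mllt6* was -1.01 (unadjusted p = 0.000637, adjusted p = 0.977, quasi-likelihood test of edgeR). Without dam 3 of FA diet + fluoxetine, *Mllt6* was at 0.26 on the FA diet.

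Some list values on the FA diet also turned on dam 3 of FA diet + fluoxetine. Immediate early genes, lower in 16 of 19 on the breeder diet, were higher in 15 of 19 on the FA diet (median 0.25), and in 10 of 19 without this dam (median 0.061). Acute-phase genes were higher in 14 of 14 (median 0.74), and in 10 of 14 without it (median 0.21). Oxidative phosphorylation genes were higher in 4 of 23 (median -0.11), and in 10 of 23 without it (median -0.013). Myoepithelial markers were higher in 2 of 10 with and without it (medians -0.22 and -0.25). Erythroid markers, higher in 5 of 5 on the breeder diet, were higher in 1 of 5 on the FA diet (median -0.063). Fibroblast and matrix genes, lower in 9 of 12 on the breeder diet, were higher in 10 of 12 there (median 0.29). For these lists no value without dam 3 is given here. The difference between the diets was tested gene by gene as the interaction over all 31 dams, and 0 of 14362 genes passed the FDR of 10% (552 at an unadjusted p of 0.05 or below, smallest adjusted p = 0.977). The likelihood ratio test and DESeq2 called 0 as well.

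**Figure D5:**
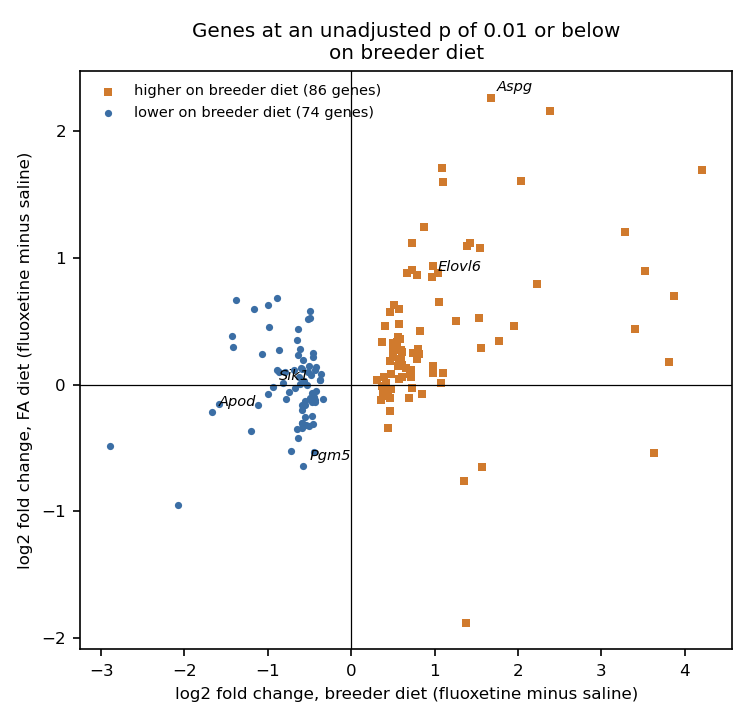
Log2 fold change of fluoxetine minus saline on the breeder diet (x axis, 7 against 8 dams) and on the FA diet (y axis, 8 against 8 other dams) for the 160 genes at an unadjusted p of 0.01 or below on the breeder diet that were tested on both. Of the 86 genes at the right (orange squares) 68 lie above 0, and the 74 genes at the left (blue circles) are split 37 to 37.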

How the data were processed

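Poly-A RNA of the mammary gland was sequenced as 1 library per dam. The authors checked reads with FastQC 0.11.7, trimmed them with Trim Galore 0.4.4, used Hisat2 for mapping to GRCm39, and ran htseq-count in its intersection-nonempty mode. They deposited raw counts of 55379 Ensembl genes per dam, not normalized. Annotation release and strand setting were not given in the sources used here. Symbols and positions came from GENCODE vM39 (667 genes had no entry), and none of its 37 mitochondrially encoded genes was among the 55379 genes counted. Older symbols of the oxidative phosphorylation list name genes already in it.

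In R 4.3.3 with edgeR 4.0.16, the 15 dams were filtered with filterByExpr (13141 genes kept), normalized with TMM and tested with the robust quasi-likelihood test and Benjamini-Hochberg adjustment at an FDR of 10%. CPM are scaled by TMM. Alternatives used the likelihood ratio test, DESeq2 1.42.0, limma 3.58.1, other filters, RLE, all 31 dams, blocking by animal number, and leaving out each dam. With a common dispersion of 0.104, precision is limited by the spread between dams and not by depth, except for rare genes. Replicates differed by more than counting error (chi-square per degree of freedom at least 14.4). Library measures were compared with exact permutation tests, two-sided.

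The dams compared, the gene lists and the rule for naming genes were chosen with earlier results of these data known, so that no count of a list is independent evidence. Named are the 10 protein-coding genes of smallest p in each direction, per list up to 4 members at an unadjusted p of 0.05 or below and the most abundant member, all members of lists of at most 3 genes tested, the 5 most abundant genes, and 14 genes that the study or its pathways turn on; 1 gene that the rule names is not reported here.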

Additional observations from a re-analysis of the deposited data

Results flagged for a closer look

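Within each group of 7 or 8 dams, the gap between an extreme dam and its neighbour was compared with the whole range for 58 groups of values, and 13 values stood out. The limits would mark about 1 in 20 groups of independent, normally distributed values. CPM need not be so distributed, and some of the groups share genes, so the 13 cannot be set against that rate. Dam 13 of breeder diet + fluoxetine was marked 4 times, with the lowest share of the 20 most abundant genes (61.2%), the lowest summed milk protein level (326380 CPM), the highest *Saa2* (196 CPM) and the highest *Etfdh* among fluoxetine dams (8.05 CPM). Dam 9 had the highest *Aspg* (8.77 CPM), dam 2 the highest *Tph1* (1.48 CPM) and dam 5 the highest summed skeletal muscle level (8431.5 CPM, next 781 CPM) of the fluoxetine dams. Among saline dams, dam 2 had the highest *Abcb9* (17.7 CPM), dam 3 the highest *Etfdh* (17.5 CPM) and dam 6 the highest *Saa2* (14.0 CPM). Saline dam 11 had the highest summed skeletal muscle level (2609 CPM), dam 4 the highest summed erythroid level (107 CPM) and dam 10 the lowest summed level of immediate early genes (200.3 CPM).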

How the results depend on the processing

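At an FDR of 10%, 0 genes were called, and also with all 31 dams, with no filter, with a filter at 1 CPM, with RLE, without the 20 most abundant genes, without robust estimation and, chosen after seeing the data, without fluoxetine dams 9 and 13 and with limma's voom with sample quality weights. The likelihood ratio test called 1 (*Apod*), DESeq2 8 (among them *Apod*, *Orm2*, *Aspg*, *Elovl6*, *Cxcl17*, *Spp1* and *Gm47445*), and leaving out each dam 0 to 1 (*Apod* without saline dam 12). The 164 genes at an unadjusted p of 0.01 or below became 333 with DESeq2 and 614 with no filter, which both started from 27531 genes, 98 with all 31 dams, and 295 with voom. Leaving out each dam gave 102 to 336, with 258 without fluoxetine dam 7, 336 without saline dam 4 and 102 without saline dam 11. No gene was called for the interaction under any of its 5 alternatives.

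Animal numbers were not paired by the study. Only numbers 2 and 6 occur in both groups, and the deviations of these dams correlated at r = 0.074 and -0.035. With a replicate block, which leaves only these dams to carry the difference, 1 gene was called (*Apod*), and 137 were at 0.01 or below, 12 of them among the 164. With all 31 dams and the block it was 0 and 92.

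*Tph1* changed sign to 0.27 with all 31 dams and the block and to 0.011 with voom, and ran from -0.52 to 0.057 when each dam was left out. The other genes described dam by dam kept their direction in all alternatives that tested them. The acute-phase median was 1.07 with DESeq2 and 1.05 without fluoxetine dams 9 and 13, the triglyceride assembly median 0.069 without these 2 dams, the skeletal muscle median -1.35 with DESeq2, and the milk protein median 0.28 without the 20 most abundant genes, where 3 of its genes remain. The cause of these differences was not tested.

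On the FA diet, leaving out each dam was chosen after seeing the data. The log2 fold change ran from -1.39 to 0.40 for *Apod*, -0.31 to 0.33 for *Sik1*, -0.017 to 0.21 for *Abcb9*, -0.12 to 0.053 for *Etfdh*, -0.055 to 0.13 for *Rcbtb1* and -0.15 to 0.038 for *Ccdc186*, so each changed sign when 1 dam was left out.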

Other observations

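Some genes outside the naming rule were looked at after their values were seen. *Spp1* (osteopontin, a secreted milk and matrix protein) had 48.9 to 183 CPM in saline dams and 74.4 to 827 CPM in 6 fluoxetine dams, while dam 13 had 5929 CPM. Its log2 fold change of 3.41 (standard error 0.946) was 1.46 without dam 13. *C4b* (a complement component in the acute-phase list) was led by dam 5 with 745 CPM, against 30.6 to 155 CPM in the other fluoxetine dams and 10.97 to 134 CPM in saline dams, and *Saa1* was led by dam 13 with 387 CPM. So the dam with the highest level was not the same in each acute-phase gene.

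*Rn18s-rs5*, annotated as ribosomal RNA, reached 68234 CPM in fluoxetine dam 9 and 2616 to 14580 CPM in the other 14 dams. Nuclear copies of mitochondrial genes made 5 of the 20 most abundant genes, and held 1.46% to 3.68% of counts in saline dams and 1.67% to 6.44% in fluoxetine dams. Such copies are near-identical to the mitochondrial genome, so the origin of these reads is uncertain.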
